A study of Homo sapiens with 27 samples.

Results

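The genes of the cytoplasmic ribosome's proteins were followed in MCF10A, an established line of non-tumorigenic human breast epithelial cells, across 9 groups of 3 RNA-seq libraries. Members were the rows whose symbols are RPL or RPS names of the cytoplasmic ribosome, with RPSA, RPLP0, RPLP1 and RPLP2 and without RPS4Y1, RPS4Y2 and the S6 kinase genes. Rows that share a symbol were summed, which turned 101 rows into 84 members of the 36585 features in the table. Of these, 46 encode canonical proteins of the large subunit, 31 encode canonical proteins of the small subunit, and 7 are close relatives of a canonical gene, called paralogs here (RPL3L, RPL7L1, RPL10L, RPL22L1, RPL26L1, RPL39L and RPS27L). A filter on low counts left 83 members for testing, and RPL10L had 0 counts in every library. All cells had been grown in medium with horse serum, insulin, hydrocortisone, cholera toxin and 20 ng/ml EGF (epidermal growth factor), and all then spent 18 h without growth factors. The T0 group was collected at 0 h. The other groups were collected after 24 h with PBS (phosphate-buffered saline) or with EGF, TGFB (transforming growth factor beta) and OSM (oncostatin M, an interleukin-6 type cytokine), singly, in pairs or all together, with every ligand at 10 ng/ml. The comparisons ask how each ligand and each combination set the levels of these mRNAs.

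Each ribosome joins a large and a small subunit, and the cell must make every canonical protein in matching amounts to assemble them. Most of these mRNAs start with a C followed by an unbroken run of pyrimidines (C or T), the terminal oligopyrimidine or TOP motif, through which mTOR and LARP1 control their translation and stability. Growth factors and MYC are known for raising ribosome production, and TGFB is known for arresting the growth of breast epithelial cells.

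The start sites of the members that the results turn on are shown first, because a pyrimidine run at the start is what most canonical members share and what most paralogs lack. Each sequence is from RefSeq on GRCh38.p14, 5′ to 3′ along the gene, with 75 bases before the annotated start and 20 from it onward. The longest run of C and T within 5 bases of the start is in capitals where it has 8 or more bases. The genes were chosen after their values were seen.
RPLP0 (chr12:120201092-120201186, minus strand): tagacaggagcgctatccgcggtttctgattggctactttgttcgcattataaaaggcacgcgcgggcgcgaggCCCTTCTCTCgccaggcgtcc
RPL13A (chr19:49487533-49487627, plus strand): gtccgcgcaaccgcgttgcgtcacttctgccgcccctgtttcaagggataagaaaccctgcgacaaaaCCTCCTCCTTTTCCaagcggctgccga
RPS27 (chr1:153990687-153990781, plus strand): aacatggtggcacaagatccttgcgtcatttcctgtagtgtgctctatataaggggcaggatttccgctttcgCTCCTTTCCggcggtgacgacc
RPSA (chr3:39406645-39406739, plus strand): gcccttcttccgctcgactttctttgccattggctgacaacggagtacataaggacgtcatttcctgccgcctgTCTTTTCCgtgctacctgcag
RPL35 (chr9:124861938-124862032, minus strand): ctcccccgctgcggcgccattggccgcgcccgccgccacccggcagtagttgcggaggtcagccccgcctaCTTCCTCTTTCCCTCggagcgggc
RPL22 (chr1:6199576-6199670, minus strand): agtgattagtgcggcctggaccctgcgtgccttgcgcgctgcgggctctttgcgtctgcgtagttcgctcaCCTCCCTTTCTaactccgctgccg
RPL22L1 (chr3:170870176-170870270, minus strand): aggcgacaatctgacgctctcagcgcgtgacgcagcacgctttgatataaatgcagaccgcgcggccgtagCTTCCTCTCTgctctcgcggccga
RPL26 (chr17:8383174-8383268, minus strand): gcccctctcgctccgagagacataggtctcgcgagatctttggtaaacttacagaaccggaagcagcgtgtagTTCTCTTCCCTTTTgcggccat
RPL26L1 (chr5:172958654-172958748, plus strand): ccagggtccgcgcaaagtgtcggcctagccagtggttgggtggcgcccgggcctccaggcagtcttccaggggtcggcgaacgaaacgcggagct
RPL7L1 (chr6:42879541-42879635, plus strand): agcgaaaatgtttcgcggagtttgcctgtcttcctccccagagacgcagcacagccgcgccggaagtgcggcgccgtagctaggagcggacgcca
RPS27L (chr15:63157458-63157552, minus strand): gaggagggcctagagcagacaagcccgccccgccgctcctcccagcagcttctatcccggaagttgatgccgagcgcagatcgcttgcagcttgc

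RefSeq promoters were matched by symbol for 67 of the 84 members. A run of 8 or more C or T bases within 5 bases of the start was present in 47.0 of the 62.0 canonical members with a promoter (75.8%), against 11.3% of 27305.0 promoters of all genes. The runs reached 25 bases in RPL7A and 22 in RPL39. Among the 5 paralogs with a promoter, only RPL22L1 had such a run, of 10 bases, the length it has in RPLP0. RPL26L1, RPL7L1 and RPS27L had runs of 2 bases, while RPL26, the canonical relative of RPL26L1, had 14. In windows from 250 bases before to 50 after the start, searched on both strands, CCGGAAG was in 33.9% of the canonical members (10.7% of all promoters) and ATGGCG in 33.9% (11%). TATAAA was in 8.065% of them (11.95% of all promoters) and CACGTG in 4.839% (7.435%). None of these motifs contains another, and a match describes letters, not a bound site. Canonical members with the run (47) and without it (15) had median log2 changes of -0.30 and -0.35 with EGF, 0.29 and 0.29 with OSM, and -0.18 and -0.16 with TGFB against PBS.

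Libraries held 30.1 to 52.9 M counts (M for mega), with a median of 39.5 M, and the median coefficient of variation of a member within a group was 2.21% to 5.51%. All 10 epithelial markers were above 1 CPM (counts per M counts) in every library, and their sum was 12232 to 13878 CPM with PBS, 12992 to 13648 with EGF, 18981 to 19490.1 with OSM, 15902 to 17398 with TGFB and 17374 to 19326 at T0. This sum was 13411 to 14631 CPM with EGF+OSM, 16530 to 18080 with EGF+TGFB, 21398 to 23236 with OSM+TGFB and 20373 to 21149.5 with all 3 ligands. The sums with EGF and with EGF+OSM overlapped those with PBS, and those of every other group lay above. The part of these sums in the results was not tested. Of 14 markers of fibroblasts, endothelium and leukocytes, 8 were under 1 CPM in every library, among them COL3A1, PDGFRA, CDH5, PTPRC and CD3E. COL1A1, DCN and CD68 were above 1 CPM throughout. KDR (0.299 to 33.7 CPM), PECAM1 (0.113 to 1.99) and PDGFRB (0.0838 to 1.15) were above 1 CPM in some libraries only. The sum of these 14 was 205 to 212 CPM with PBS, 58.3 to 63.9 with EGF, 128 to 148 with OSM and 256 to 269.9 with TGFB. It was 46.7 to 49.2 with EGF+OSM, 104 to 120 with EGF+TGFB, 200 to 211 with OSM+TGFB and 86.1 to 95.9 with all 3 ligands. At T0 it was 159 to 169. Its part in the results was not tested. The labels do not say whether replicates were separate cultures, so p-values measure only the spread between these samples, which may be technical. In bulk RNA, fewer cells of a type and less RNA per cell cannot be told apart.

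Ribosomal protein mRNAs took 7.45%, 7.75% and 7.36% of all counts in the 3 PBS libraries and 7.52%, 7.70% and 7.86% in the T0 libraries. The share was 5.79%, 6.03% and 5.87% with EGF, 8.10%, 8.56% and 7.91% with OSM, and 6.26%, 6.28% and 6.37% with TGFB. Every EGF and TGFB library lay below every PBS library, and every OSM library lay above. With EGF+TGFB the share was 4.34%, 4.44% and 4.58%, the lowest of the 9 groups, and with all 3 ligands it was 4.91%, 4.83% and 4.88%. The mean share was 6.26% ± 0.0251 (SD, n = 3) with EGF+OSM and 6.14% ± 0.0567 with OSM+TGFB, both below the 7.52% ± 0.206 of PBS without overlap. This share needs no scaling between libraries, but it falls when other mRNAs take more of the total, so a lower share is not by itself a lower amount per cell. The exact (Clopper-Pearson) 95% interval of the share was 4.34% to 4.35% in the lowest library and 8.55% to 8.57% in the highest, and covers counting error only.

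**Figure D1:**
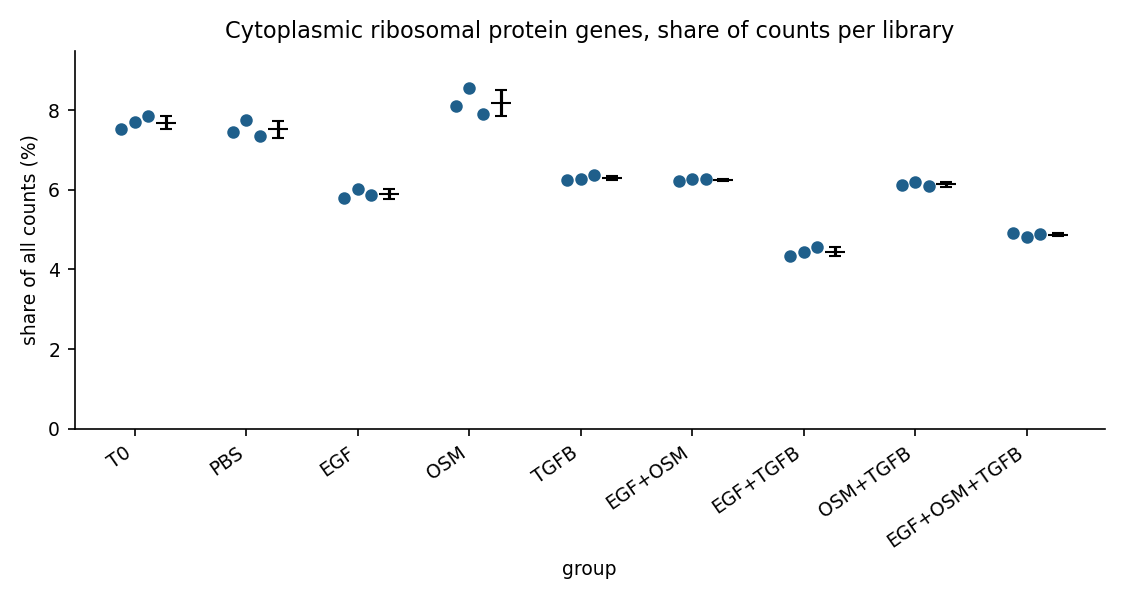
Share of all counts, in percent, taken by the 84 ribosomal protein genes in each library (points, 3 per group; the black mark beside them is the mean with its SD). OSM libraries sit between 7.91% and 8.56%, above PBS, and EGF+TGFB libraries sit between 4.34% and 4.58%, the lowest of the 9 groups.

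Levels below are CPM after TMM scaling (trimmed mean of M-values), and differences are log2 fold changes ± SE from edgeR's quasi-likelihood test. A member is called where p, adjusted over all 15577 features, is under 0.05, and "rose" and "fell" are used of called members. Per kilobase of transcript, with lengths from GENCODE v44 that are rough for some genes, the highest mean levels over all libraries were those of RPLP1 (2535 CPM per kb), RPL41 (2288), RPS18 (2244), RPS27 (2191) and RPLP0 (2183). By counts alone, which also grow with length, RPL4, RPLP0, RPL3, RPL13A and RPS2 led. The lowest canonical member per kilobase was RPL9 (58.5 CPM per kb), whose reads may be shared with near-identical copies, so its level is uncertain. Among paralogs RPL22L1 had 72.1, RPL7L1 55.1, RPL26L1 47.1 and RPS27L 46.7 CPM per kb, and RPL39L and RPL3L had 0.579 and 0.543. After TMM scaling, 76 of the 77 canonical members had their highest group mean with OSM, and RPL9 had it with EGF+OSM. The lowest group mean was with EGF+TGFB for 73 of them and with TGFB alone for the other 4. With library totals only, RPL8, RPL18, RPL19, RPL29, RPL36, RPL37 and RPS27 had log2 changes of 0.00 or below with OSM against PBS. The count of 76 therefore depends on the scaling.

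EGF lowered most ribosomal protein mRNAs. Of the 83 members, 68 fell and 5 rose against PBS, where 38.6% of all features fell and 34.9% rose, and the median log2 change was -0.33 over the members and -0.07 over all features. The large subunit (41 of 46 fell, median -0.35) and the small subunit (26 of 31 fell, median -0.30) had similar medians. Among the members that fell most were RPS27 (-0.65), RPS27L (-0.61), RPL13A (-0.58), RPLP0 (-0.57), RPL37 (-0.55), RPS19 (-0.50) and RPL29 (-0.50). The 5 that rose were RPL22L1 (1.36), RPL26L1 (0.53), RPL7L1 (0.42), RPL9 (0.39) and RPL35 (0.15). In all, 74 of the 83 members had no overlap between the PBS and EGF libraries, where 75.7% of all features had none.

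RPS27 (ENSG00000177954, chr1:153990762-153992155), a zinc finger protein of the small subunit, was at 876, 959 and 895 CPM with PBS and at 549.6, 608 and 583 CPM with EGF. The libraries did not overlap. Its fold was 0.637, a log2 change of -0.65 ± 0.05 (edgeR adjusted p = 2.54e-11). RPL13A (ENSG00000142541, chr19:49487510-49493057), a large subunit protein also known for silencing inflammatory mRNAs outside the ribosome, was at 2125, 2284 and 2140.3 CPM with PBS and at 1383, 1526 and 1464 CPM with EGF. Every EGF library was below every PBS library, with a log2 change of -0.58 ± 0.05 (edgeR adjusted p = 1.23e-10). RPL35 (ENSG00000136942, chr9:124857880-124861981), which sits at the exit of the peptide tunnel, was at 366, 394 and 360.0 CPM with PBS and at 405, 429 and 409.6 CPM with EGF. Here the EGF libraries were the higher ones, without overlap. The rise was 0.15 ± 0.04 (edgeR adjusted p = 0.00312) and was not called with upper-quartile scaling (0.09, edgeR adjusted p = 0.0502).

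OSM raised nearly all of them. Against PBS, 78 of 83 members rose and 1 fell, where 33.5% of all features rose and 29.8% fell, with a median log2 change of 0.28 over the members and 0.00 over all features. The members that rose most were RPL22L1 (1.24), RPS29 (0.57), RPSA (0.52), RPL9 (0.45), RPL35 (0.44), RPL3 (0.43), RPS12 (0.42) and RPL21 (0.41). RPS27L was the member that fell (-0.34 ± 0.08, edgeR adjusted p = 0.000609). RPSA (ENSG00000168028, chr3:39406716-39426255), a small subunit protein also known as the laminin receptor, was at 1133, 1216 and 1127 CPM with PBS and at 1552, 1729 and 1689 CPM with OSM. No library overlapped, and the fold was 1.43 (edgeR adjusted p = 5.78e-10). RPS29, a zinc-binding protein of the small subunit, was at 243, 254 and 221 CPM with PBS and at 338, 360.3 and 365 CPM with OSM, again without overlap. RPS27, the member that fell most with EGF, was not called with OSM (0.12 ± 0.05, edgeR adjusted p = 0.0547). Without scaling factors (library totals only) 50 members rose and 2 fell, and the log2 changes of RPL19 (-0.027), RPL29 (-0.029), RPL36, RPL37 and RPL8, all called, and of RPL18 (-0.069) and RPS27 (-0.044), not called, turned to 0.00 or below.

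TGFB also lowered most of these mRNAs. Against PBS, 61 of 83 members fell, where 15.8% of all features fell, and 1 rose, where 19.9% rose, with a median log2 change of -0.17 over the members and -0.01 over all features. The members that fell most were RPLP0 (-0.32), RPL3 (-0.32), RPS2 (-0.32), RPL9 (-0.29), RPL13A (-0.28), RPL12 (-0.26), RPL19 (-0.26) and RPSA (-0.26). RPL3, which lies near the peptidyl transferase centre, was at 2185, 2327 and 2276 CPM with PBS and at 1727, 1846 and 1871 CPM with TGFB. The groups did not overlap (edgeR adjusted p = 3.88e-06). The member that rose, RPS27L, was at 46.98, 48.7 and 39.7 CPM with PBS and at 55.3, 55.97 and 46.8 CPM with TGFB. These libraries overlapped, and the rise (0.22 ± 0.08, edgeR adjusted p = 0.0286) was not called without PBS replicate 3, TGFB replicate 1 or TGFB replicate 2. Without PBS replicate 2, 36 members fell in place of 61, and RPL9 was not called (-0.23, edgeR adjusted p = 0.058).

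**Figure D2:**
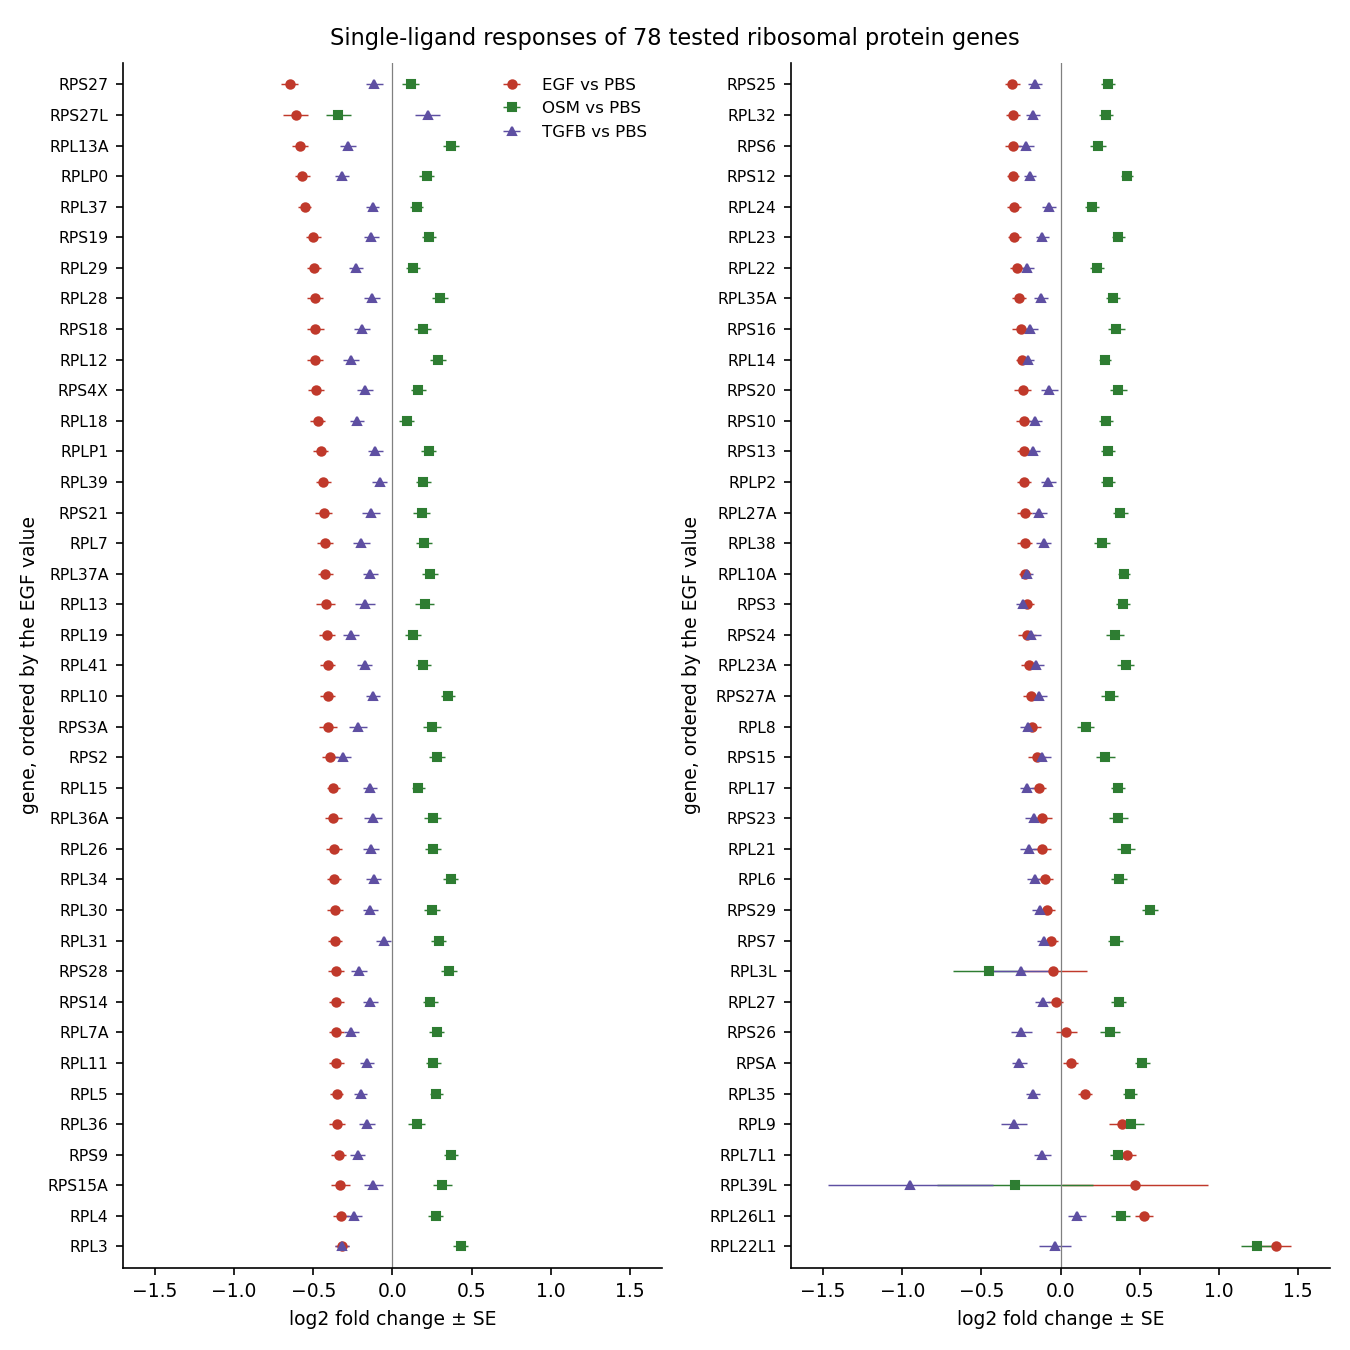
Log2 fold change ± SE against PBS of 78 of the 83 tested members with EGF (red circles), OSM (green squares) and TGFB (purple triangles), ordered by the EGF value from the lowest at the top left to the highest at the bottom right. Green squares lie above 0 for all but 3 of the members shown (RPL18, RPL19, RPL29, RPL36, RPL37, RPL8 and RPS27 would also lie at or below 0 with library totals only), red circles lie below 0 for all but 8, and RPL22L1 has the highest value with EGF (1.36) and with OSM (1.24).

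The 3 single-ligand comparisons share their PBS libraries, so their values for each member are given side by side. EGF and OSM share no library and were also compared directly. There, 77 members were higher with OSM, where 28% of all features were higher, and 1 was lower (RPL26L1, -0.15 ± 0.06), where 28.8% were lower, with a median of 0.60 over the members and 0.00 over all features. RPL13A differed most, at 2737, 3052 and 2692 CPM with OSM against the EGF libraries given above, a fold of 1.94 with no overlap (edgeR adjusted p = 3.7e-14). The call of RPL26L1 was lost without EGF replicate 3 or OSM replicate 1, and 2 members were lower without EGF replicate 2.

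The members can be followed by their place in the ribosome. The P-stalk, which recruits elongation factors, holds RPLP0, RPLP1 and RPLP2. RPLP0 (ENSG00000089157, chr12:120196699-120201235) was at 2567, 2831 and 2639 CPM with PBS, 1726, 1880.3 and 1813 with EGF, 3003, 3360.0 and 2976 with OSM and 2102, 2191 and 2152 with TGFB. Each of these ligand groups lay apart from PBS. RPLP1 and RPLP2 fell with EGF (-0.45 ± 0.05 and -0.23 ± 0.05) and rose with OSM (0.23 ± 0.05 and 0.30 ± 0.05). With TGFB neither was called (-0.11, edgeR adjusted p = 0.0798, and -0.08, edgeR adjusted p = 0.199). RPL5 and RPL11, which carry the 5S ribosomal RNA and can bind MDM2, both fell with EGF (-0.35 ± 0.04 and -0.35 ± 0.05) and with TGFB (-0.20 ± 0.04 and -0.16 ± 0.05), and both rose with OSM (0.28 ± 0.04 and 0.26 ± 0.05).

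On the small subunit, RPS6, the substrate after which the S6 kinases are named, was at 1312, 1437 and 1293 CPM with PBS, 1036, 1146 and 1098 with EGF and 1531, 1711 and 1529 with OSM. Its groups did not overlap PBS, and the log2 changes were -0.30 ± 0.05 (edgeR adjusted p = 8.27e-06) and 0.24 ± 0.05 (edgeR adjusted p = 0.000198). RPS19 and RPS14, whose mutation or loss is known from inherited and acquired anaemias, fell with EGF (-0.50 ± 0.05 and -0.36 ± 0.05) and rose with OSM (0.23 ± 0.05 and 0.24 ± 0.05).

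Most members also fell where EGF was combined with another ligand. With EGF+TGFB, 76 of 83 members fell and 2 rose, where 37.5% of all features fell and 36.1% rose, and the median log2 change was -0.52 against -0.04 over all features. RPL13A, the lowest there, was at 1099.7, 1153 and 1163 CPM, a fold of 0.521 against PBS, with no overlap (-0.94 ± 0.05, edgeR adjusted p = 9.83e-15). With all 3 ligands 67 fell and 4 rose, where 36.7% and 37.7% of all features did, and the median was -0.28 against 0.00. The members that fell most were RPS27L (-0.71), RPL18 (-0.61), RPLP0 (-0.57), RPL13A (-0.56), RPL7 (-0.51), RPS2 (-0.50), RPL29 (-0.47) and RPL19 (-0.46). The members that rose were RPL22L1 (1.11), RPL26L1 (0.33), RPL7L1 (0.15) and RPL35 (0.11). With library totals only RPL7L1 and RPL35 turned to -0.17 and -0.21, and RPL26L1 was not called (0.01, edgeR adjusted p = 0.895). RPL7L1 and RPL35 were also not called with upper-quartile scaling (0.06 and 0.02, edgeR adjusted p = 0.295 and 0.723). The call of RPL35 was lost as well with RLE scaling and without the filter on low counts. It was also lost without PBS replicate 1, PBS replicate 3, EGF+OSM+TGFB replicate 1 or EGF+OSM+TGFB replicate 3. EGF+OSM had a median between those of its ligands: 50 members fell and 10 rose, where 39.6% and 37.6% of all features did, with a median of -0.14 against -0.05. The 10 that rose were RPL22L1, RPL7L1, RPL9, RPL26L1, RPL35, RPSA, RPS26, RPS29, RPL27 and RPL21, and 23 members were not called.

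With TMM scaling, the members' median in OSM+TGFB was near PBS. Of the 83 members 18 rose and 4 fell, smaller shares than among all features (34.2% and 31.8%), with a median of 0.03 that turned to -0.054 with upper-quartile scaling (4 rose, 23 fell) and to -0.28 with library totals only (0 rose, 78 fell). Relative to the median of all features, the members' median was 0.03 under each of the 4 scalings. A change of scaling shifts all features by about the same amount, so this sameness was fixed in advance. It does not tell which scaling holds. RPL10, which completes the large subunit late in its assembly, was at 1223, 1326 and 1262 CPM with PBS and at 1624, 1588 and 1577 CPM with OSM+TGFB. The groups did not overlap (0.33 ± 0.05, edgeR adjusted p = 5.25e-07). The count of 18 was 8 without PBS replicate 1 and 7 without PBS replicate 3, and the count of 4 was 2 without PBS replicate 2.

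**Figure D3:**
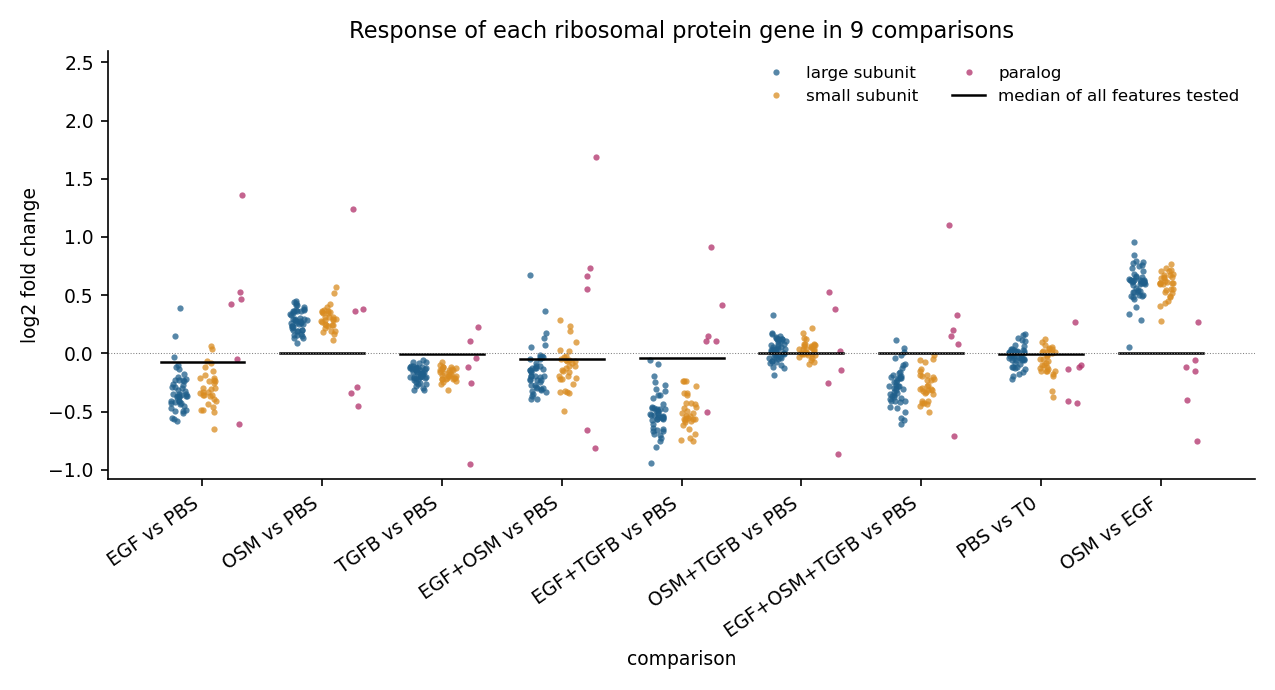
Log2 fold change of each of the 83 tested members in 9 comparisons, by large subunit (blue), small subunit (orange) and paralogs (magenta), with the median of all 15577 features as a black line. Most canonical members lie below the line with EGF and with TGFB and above it with OSM, their position against 0 with OSM+TGFB depends on the scaling (0.03 in the median, -0.28 with library totals only), and RPL22L1 is the highest member with EGF+OSM (1.69).

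A combination's log2 change can be set against the sum of the changes that its ligands gave alone, and the difference was tested in the same model. In EGF+OSM, 18 members were lower than the sum (23% of all features) and 0 were called higher by edgeR (15.7%). In EGF+TGFB 3 were lower (16.5% of all features) and 0 higher (13.3%). In OSM+TGFB 8 were lower (13.7%) and 0 higher (9.6%), and with all 3 ligands 12 were lower (25.9%) and 0 higher (22%). At an unadjusted p under 0.05 also 0 members were higher in each of the 4, and DESeq2 called 0 higher in each. In all 4 combinations the share of members lower than the sum was below that of all features with TMM scaling. With library totals only, 8, 47, 45 and 31 members were lower in these 4, and with upper-quartile scaling 10 were lower in EGF+OSM and 2 were higher with all 3 ligands.

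RPL22L1 had the largest shortfall among the members in all 4 combinations, at -0.91 ± 0.14 in EGF+OSM, -0.41 ± 0.14 in EGF+TGFB, -0.68 ± 0.14 in OSM+TGFB and -1.45 ± 0.20 with all 3 ligands. It was followed in EGF+OSM by RPL26L1 (-0.35 ± 0.08) and RPSA (-0.29 ± 0.07), and in EGF+TGFB by RPL26L1 (-0.22 ± 0.08) and RPL7L1 (-0.20 ± 0.08). In OSM+TGFB RPS29 (-0.27 ± 0.07) and RPL7L1 (-0.23 ± 0.08) came next, and with all 3 ligands RPL26L1 (-0.69 ± 0.12) and RPL7L1 (-0.52 ± 0.11). The 3 members called in EGF+TGFB are all paralogs. These counts rest on single libraries. The count in EGF+OSM was 9 without PBS replicate 1, PBS replicate 3, EGF replicate 2 or OSM replicate 2, 10 without EGF+OSM replicate 2 and 11 without EGF replicate 3. In EGF+TGFB leaving out each of the 12 libraries in turn gave 0 to 5. In OSM+TGFB it was 2 without PBS replicate 1, PBS replicate 3, OSM replicate 2, TGFB replicate 3 or OSM+TGFB replicate 2, 4 without TGFB replicate 1, TGFB replicate 2 or OSM+TGFB replicate 3, and 5 without OSM+TGFB replicate 1. With all 3 ligands it was 7 without PBS replicate 3 and 20 without PBS replicate 2, and 2 members were higher without OSM replicate 2.

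The PBS group was collected 24 h after T0, with PBS given in place of a ligand. Here 15 members were lower in PBS and 3 higher, where 18.9% and 16.2% of all features were, with a median log2 change of -0.04 over the members and -0.01 over all features. The lowest were RPL22L1 (-0.43), RPL26L1 (-0.41), RPSA (-0.38), RPS29 (-0.32), RPL21 (-0.22), RPL17 (-0.20), RPS3 (-0.19) and RPL35 (-0.18). RPSA was at 1456, 1504 and 1549 CPM at T0, above all 3 PBS libraries. The higher members were RPL13 (0.16), RPL37 (0.16) and RPL36 (0.13), and 1 member was higher without T0 replicate 1, T0 replicate 2 or PBS replicate 2. RPL13 and RPL36 were both not called in each of these fits, nor without the filter on low counts. RPL13 also lost its call without PBS replicate 3, and RPL36 without T0 replicate 3 or PBS replicate 1. DESeq2, the replicate block, upper-quartile scaling and library totals each gave 6 higher members.

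Paralogs differed from their canonical relatives in several responses. RPL22L1 (ENSG00000163584, chr3:170864875-170870208), a close relative of RPL22 in the large subunit, was at 46.2, 46.2 and 46.3 CPM with PBS, 115, 117 and 124 with EGF, 98.2, 98.2 and 131 with OSM and 40.6, 43.99 and 50.7 with TGFB. The EGF and OSM libraries lay above PBS without overlap (folds of 2.56 and 2.36, edgeR adjusted p = 1.37e-11 and 1.17e-10), and TGFB overlapped PBS (-0.04 ± 0.10, edgeR adjusted p = 0.82). With EGF+OSM it was at 144, 149 and 153 CPM, the highest of the 9 groups. RPL22 itself fell with EGF (-0.27 ± 0.04) and rose with OSM (0.23 ± 0.04).

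A ratio of counts within a library does not depend on scaling. There were 11.99 ± 0.365 (SD, n = 3) counts of RPL22L1 per 100 of RPL22 with PBS, 37.1 ± 1.31 with EGF, 24.1 ± 4.38 with OSM, 13.5 ± 0.963 with TGFB and 42.1 ± 0.993 with EGF+OSM. The lowest EGF library (35.6) was above the highest OSM library (29.1). RPL7L1, a relative of RPL7, had 14.6 ± 0.403 counts per 100 of RPL7 with PBS, 26.2 ± 1.26 with EGF, 30.1 ± 1.41 with EGF+OSM and 16.3 ± 1.39 with OSM. Its ratio was 22.6 or more in each of the 12 libraries given EGF and 17.9 or less in each of the other 15. RPL26L1 had 3.17 ± 0.0338 per 100 of RPL26 with PBS, 5.93 ± 0.354 with EGF, 3.46 ± 0.142 with OSM and 4.29 ± 0.0309 at T0. RPS27L had 4.95 ± 0.476 per 100 of RPS27 with PBS, 5.10 ± 0.339 with EGF, 3.61 ± 0.252 with OSM and 6.28 ± 0.743 with TGFB. Both genes of this pair fell with EGF. RPL39L and RPL3L reached at most 0.982 and 1.69 CPM in any library, and their ratios to RPL39 and RPL3 at most 0.196 and 0.102 per 100 counts. Reads of near-identical sequence could be divided between a paralog and its relative by the estimate, so these ratios describe the deposited counts.

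**Figure D4:**
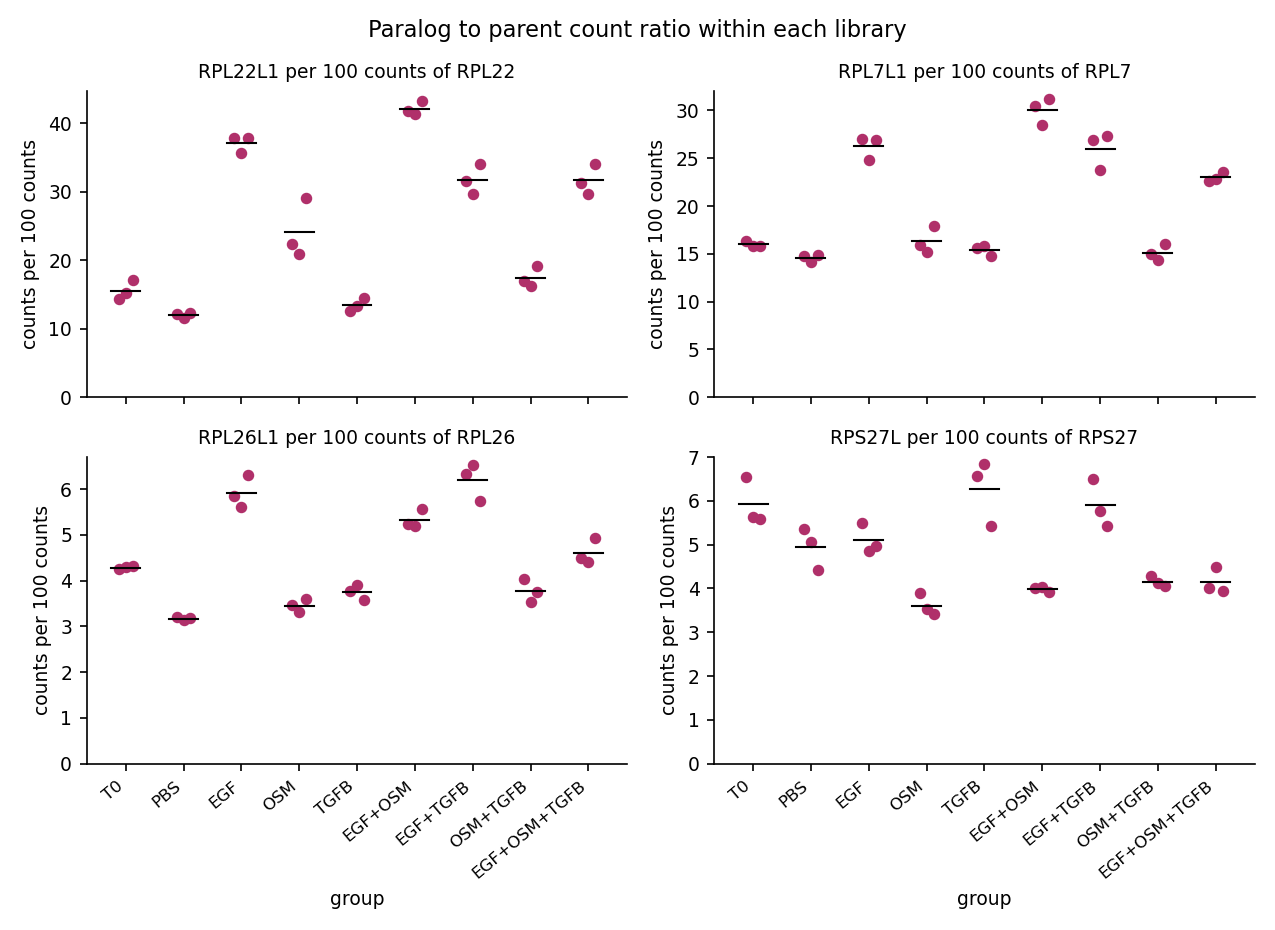
Counts of each of 4 paralogs per 100 counts of its canonical relative in each library (points, 3 per group; the line is the mean). RPL22L1 goes from 11.99 with PBS to 37.1 with EGF and 42.1 with EGF+OSM, and RPL7L1 is at 22.6 or more in the 12 libraries given EGF and at 17.9 or less in the others.

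Canonical members also changed against each other. The following pairs were chosen after their values were seen, so their ratios are a description. RPSA had 44.1, 42.95 and 42.7 counts per 100 of RPLP0 in the PBS libraries, 67.2, 66.2 and 67.7 with EGF and 51.7, 51.5 and 56.8 with OSM. The ratio was 61.2 or more in each of the 12 libraries given EGF and 56.8 or less in each of the other 15. RPL35 had 17.2, 17.2 and 16.8 counts per 100 of RPL13A with PBS, 29.3, 28.1 and 27.98 with EGF and 18.4, 17.5 and 17.8 with OSM. Again the 12 libraries given EGF (26.2 to 32.5) lay above the other 15 (16.8 to 19.6).

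Proteins of the ribosome that the symbol rule leaves out were measured beside the members. RACK1, a scaffold of the small subunit, was at 2066, 2256 and 2120.1 CPM with PBS, 1654, 1779 and 1759 with EGF and 2569, 2787 and 2528 with OSM, without overlap with PBS. FAU, whose product is cleaved into a ubiquitin-like protein and a ribosomal protein, was not called with EGF (-0.05, edgeR adjusted p = 0.362) and rose with OSM (0.18). RPL36AL, an expressed copy of RPL36A, was not called with EGF (-0.02, edgeR adjusted p = 0.763), and its rise of 0.11 with OSM turned to -0.05 with library totals only.

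Other mRNAs with a known TOP motif or a role in elongation also mostly fell with EGF. Of 18 such genes, 15 fell and 3 rose with EGF (median -0.47), 10 rose and 1 fell with OSM (median 0.15, which turned to -0.01 with library totals only), and 14 fell and 1 rose with TGFB (median -0.20). Over all features 38.6% fell and 34.9% rose with EGF, 33.5% rose and 29.8% fell with OSM, and 15.8% fell and 19.9% rose with TGFB. EIF4B, which helps unwind mRNA leaders, fell most among them with EGF and was at 1044, 1079 and 1003 CPM with PBS and at 486, 519 and 514 CPM with EGF. The groups did not overlap (-1.04 ± 0.05, edgeR adjusted p = 3.69e-15). EEF1A1 and EEF2, the elongation factors that deliver aminoacyl-tRNA and move the ribosome, fell with EGF (-0.69 and -0.70). The 3 that rose with EGF were VIM (1.27), HNRNPA1 (0.68) and EEF1D (0.15). VIM encodes vimentin, also a mesenchymal marker, and rose with TGFB too (0.94).

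Most genes that build ribosomes rose with EGF. Of 25 genes of rRNA synthesis, processing and assembly, 23 rose and 1 fell with EGF (median 1.02), 24 rose with OSM (median 0.57), and 14 fell and 1 rose with TGFB (median -0.20), beside 34.9% and 38.6% of all features with EGF, 33.5% rising with OSM, and 15.8% and 19.9% with TGFB. NCL, the nucleolar protein nucleolin, was at 550.1, 569 and 549 CPM with PBS, 1094, 1170.4 and 1263 with EGF and 893, 949.7 and 1038 with OSM, with no overlap with PBS. POLR3G, a subunit of RNA polymerase III, rose by 2.45 with EGF and 1.61 with OSM, and NOB1, which trims the small subunit's rRNA, was the one that fell with EGF (-0.40). Of 25 initiation factors 14 rose and 5 fell with EGF (median 0.43) and 15 rose and 3 fell with OSM (median 0.33), beside 34.9% and 38.6% of all features with EGF and 33.5% and 29.8% with OSM. Among them the cap-binding protein EIF4E rose with EGF (1.01), and EIF4A2 fell (-1.18). Of the 78 mitochondrial ribosomal proteins, which serve the separate ribosome of the mitochondrion, 52 rose and 10 fell with EGF (median 0.34), and 1 rose and 40 fell with TGFB (median -0.20), where 34.9% of all features rose and 38.6% fell with EGF and 19.9% rose and 15.8% fell with TGFB.

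**Figure D5:**
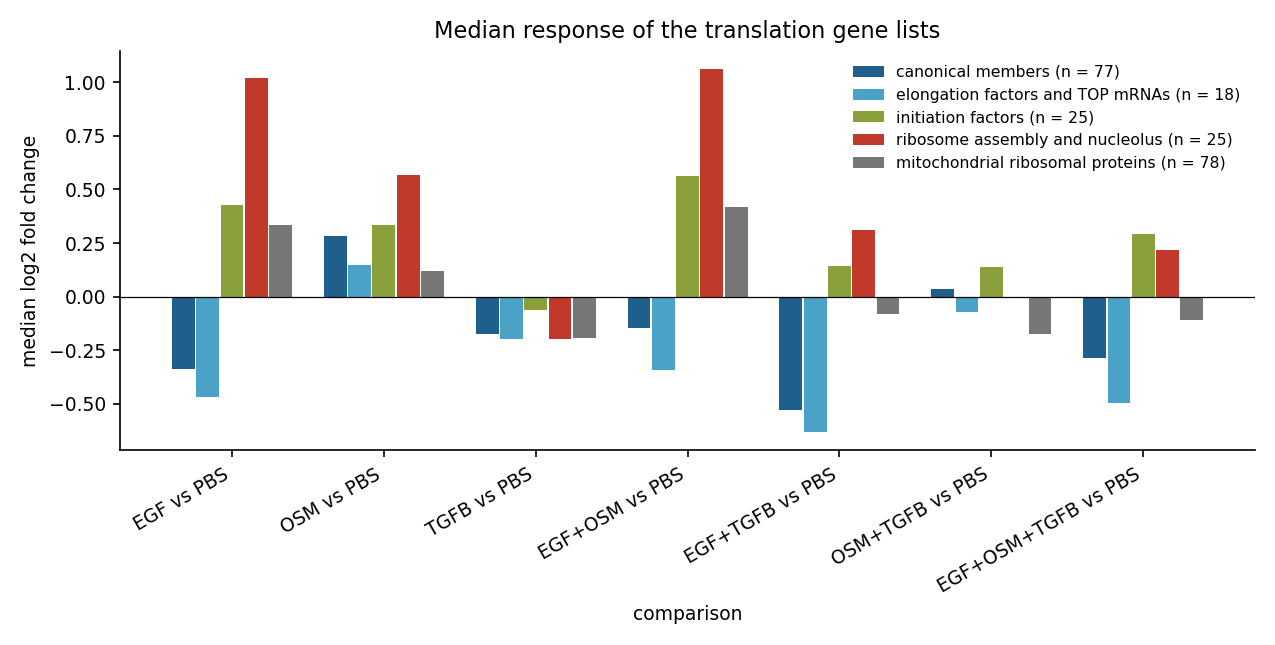
Median log2 fold change against PBS over 5 gene lists in the 7 ligand groups (bars from 0, one color per list, n genes tested in the legend). With EGF the canonical ribosomal proteins and the TOP list lie below 0 (TOP list -0.47) while assembly genes lie at 1.02; with OSM all 5 bars lie above 0, of which those of the TOP list and the mitochondrial list turn to -0.01 and -0.04 with library totals only.

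Known regulators of these mRNAs were also measured, with CDKN1A and MDM2 beside them as genes of another list, which holds 4. Of 16 genes of the axis of mTOR, S6 kinase and 4E-BP, 7 rose and 8 fell with EGF (median -0.10), where 34.9% of all features rose and 38.6% fell. EIF4EBP1, which blocks cap-dependent initiation when unphosphorylated, was at 15.96, 15.7 and 16.3 CPM with PBS, 52.6, 55.5 and 60.7 with EGF and 38.7, 35.2 and 44.8 with OSM, without overlap with PBS. DEPTOR, an inhibitor of mTOR, and PDCD4, an S6 kinase substrate that blocks EIF4A, fell with EGF (-2.33 ± 0.23 and -1.79 ± 0.09). LARP1, which binds TOP mRNAs, rose with EGF (0.26 ± 0.05). EIF4EBP1, DEPTOR, PDCD4 and LARP1 are only a part of the 16 genes and were chosen after their values were seen. MYC was at 253, 255 and 246 CPM with PBS, 330.0, 351 and 353 with EGF, 384, 399 and 361 with OSM and 195, 189.5 and 196 with TGFB. Each of these groups lay apart from PBS. MYC was chosen after its values were seen, and the other transcription factor genes measured are not given here. Apart from these regulators, CDKN1A, an inhibitor of the cell cycle, and MDM2, a ubiquitin ligase, fell with EGF (-1.05 ± 0.12 and -0.48 ± 0.08). Both were chosen after their values were seen.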

How the data were processed

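RNA was selected for polyadenylated transcripts and made into stranded libraries, per the labels' protocols. The submitters' processing notes name Trim Galore 0.4.3, cutadapt 1.10, FastQC 0.11.5, kallisto 0.46.2 and R 3.5.0 and the builds GRCh38.p5 and hg38. The values are estimated counts per gene as the authors deposited them, already whole numbers. How transcripts were summed to genes and rounded is not given in the sources used here.

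Counts of rows that share a symbol were summed, which left 36585 features from 40487 rows. Rows without a symbol stayed in and held 0.324% of the counts. Features passing filterByExpr (15577) were scaled by TMM (factors 0.867 to 1.12) and fitted with edgeR 4.0.16 in R 4.3.3 (robust quasi-likelihood, all 27 libraries, a mean per group, 18 residual degrees of freedom, biological coefficient of variation 7.83%). P-values were adjusted by Benjamini-Hochberg over all features, with a threshold of 0.05. The fit was also run on simulated data in which few features changed, as many up as down. That run does not test the scaling where many features change, as they do here. Totals were 30.1 to 52.9 M counts. Replicate pairs differed by more than sampling noise (chi-square per degree of freedom 6.52 to 31.7).

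Members and lists were chosen with earlier results of these data known. Named members are the 8 highest and 8 lowest called in EGF, OSM, TGFB and all 3 ligands against PBS and in PBS against T0. They also include the 3 highest and lowest in each departure from additivity, the paralogs with their relatives, and the 5 highest and lowest levels. The other members named (RPL5, RPL10, RPL11, RPS6, RPS14, RPLP1 and RPLP2) were chosen after their values were seen. So were the genes named from the TOP, S6 kinase, assembly, initiation and transcription factor lists, and CDKN1A and MDM2. Some genes are not reported here. Alternatives were upper-quartile scaling, RLE, no scaling factors, DESeq2 1.42.0, no filter, rows as deposited, a replicate block and each library left out. Promoters are RefSeq on GRCh38.p14, and gene spans are GENCODE v44 on GRCh38, with all 84 members matched.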

Additional observations from a re-analysis of the deposited data

Results flagged for a closer look

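In each combination of ligands some members' log2 change differed from the sum of the changes given by the ligands alone, as tested in the model. The number past the threshold was 18 in EGF+OSM, 3 in EGF+TGFB, 8 in OSM+TGFB and 12 with all 3 ligands. Every one of these members was lower than the sum. Among all features 23%, 16.5%, 13.7% and 25.9% were lower, and 15.7%, 13.3%, 9.6% and 22% were higher. With TMM scaling the share of members that were lower was below that of all features in each combination. With upper-quartile scaling 2 members were higher with all 3 ligands.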

How the results depend on the processing

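Of the counts and medians recomputed under each alternative, 492 kept their direction and stayed within 1.5 times (counts) or 1 SD (medians), 92 moved and 4 turned sign. Of single-member results 900 kept their call, 63 lost it and 2 turned sign (RPL7L1 to -0.17 and RPL35 to -0.21 with all 3 ligands, library totals only). Library totals alone moved the median of all features by as much as -0.32 (log2). Causes of the changes below were not tested.

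With library totals only, the members' median was 0.13 with OSM, -0.23 with TGFB, -0.25 with EGF+OSM, -0.73 with EGF+TGFB, -0.28 with OSM+TGFB (turned), -0.60 with all 3 ligands and 0.46 for OSM against EGF. Its difference from the sum was -0.039 in EGF+OSM, -0.16 in EGF+TGFB, -0.18 in OSM+TGFB and -0.16 with all 3 ligands. Members higher were 50 with OSM, 0 with TGFB, 0 with OSM+TGFB, 1 with all 3 ligands and 6 in PBS against T0, and members lower were 2 with OSM, 78 with OSM+TGFB and 4 for OSM against EGF. Members lower than the sum were 8 in EGF+OSM, 47 in EGF+TGFB, 45 in OSM+TGFB and 31 with all 3 ligands.

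With upper-quartile scaling the median was -0.39 with EGF, -0.23 with EGF+OSM, -0.62 with EGF+TGFB, -0.054 with OSM+TGFB (turned) and -0.38 with all 3 ligands, whose difference from the sum was -0.012. Members higher were 0 with TGFB, 4 with OSM+TGFB (23 lower), 2 with all 3 ligands (2 above the sum) and 6 in PBS against T0, and 10 were lower than the sum in EGF+OSM. RLE gave 10 higher with OSM+TGFB. Without a filter, members higher were 0 with TGFB, 7 with OSM+TGFB and 1 in PBS against T0. Members lower than the sum were then 6 in EGF+OSM, 0 in EGF+TGFB (median 0.013, turned), 2 in OSM+TGFB and 7 with all 3 ligands. DESeq2 gave 6 lower than the sum in EGF+TGFB, 8 lower with OSM+TGFB and 6 higher in PBS against T0. With mitochondrial transcripts and the 10 most abundant other genes left out of the denominator, the share of counts was 0.849 of that in PBS with OSM+TGFB and 0.674 with all 3 ligands.

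Libraries share only a number across groups: 85 of 108 same-numbered pairs correlated above 0.1 (range -0.07 to 0.45), and 27 of 27 libraries correlated best with their own number, a hint from the data. The replicate block gave 6 higher in PBS against T0 and 5 lower than the sum in EGF+TGFB, and moved calls over all features with EGF from 5429 higher and 6017 lower to 5517 and 6122.

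Leaving out each library in turn gave 0 to 1 higher and 36 to 62 lower with TGFB, 7 to 21 higher and 2 to 5 lower with OSM+TGFB, 1 to 3 higher in PBS against T0 and 0 to 2 lower for OSM against EGF, with medians of -0.54 to -0.48 with EGF+TGFB. Members lower than the sum were 9 to 25 in EGF+OSM, 0 to 5 in EGF+TGFB (median -0.066 to 0.021, turned without EGF+TGFB replicate 3), 2 to 10 in OSM+TGFB and 7 to 20 with all 3 ligands (0 to 2 higher, median -0.14 to -0.026). RPL39L and RPL3L were under 2 CPM in every library, so few counts stand behind their values.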

Other observations

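Rows named for ribosomal protein pseudogenes held few counts, 1.26 to 1.46 per 100 counts of the members. The largest were RPL23AP42 (302 CPM on average over all libraries), RPL21P16 (274 CPM), RPS2P5 (118 CPM) and RPS28P7 (96.7 CPM). RPS2P5 fell with EGF (-0.38) and rose with OSM (0.29), and RPS28P7 fell by 0.35 with EGF and rose with OSM (0.35). RPL23AP82 rose with EGF (0.29). For some members the copy was not small, as RPL23A itself had 462 CPM and RPL21 had 355 CPM on average. Reads of such copies and of their source genes can be alike, so these values are uncertain, those of RPL21 and RPL23A included.

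Read-through genes that join a member to its neighbour had these values. RPS10-NUDT3 (10.9 CPM on average) rose with EGF (1.35, edgeR adjusted p = 4.65e-06) and with OSM (0.91), while RPS10 had -0.23 and 0.28. RPL17-C18orf32 (26.8 CPM) fell with EGF (-0.69) and with OSM (-0.58), while RPL17 had -0.13 and 0.36. RPL36A-HNRNPH2 (59.9 CPM) fell with EGF (-0.59) and was not called with OSM (0.16, edgeR adjusted p = 0.193), while RPL36A had -0.37 and 0.25. These values also depend on how the estimate divides reads between overlapping genes.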
